A study of Rattus norvegicus with 40 samples.

Results

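The 9 genes described here encode glutathione S-transferases, and their RNA was measured in the liver of rats treated with diethylnitrosamine (DEN), a carcinogen that liver cells activate to a DNA-alkylating form. They are Gsta3, Gsta4, Gstm1, Gstm2, Gstt1, Gstk1, Gsto1, Gstz1 and Mgst1, chosen by symbol from the 17337 genes of the count files. Gstp1, the member of the family used as a marker of early liver lesions, was not among them. All animals were male Fischer 344 rats, 7 weeks old at the start. Treated rats were given 50 mg/kg DEN in olive oil by intra-peritoneal injection once a week. The 8 w rats had 8 injections, the 14 w rats had 14, and the 20 w rats had 14 and then 6 weeks without DEN. Non-tumor liver (NT) came from 4 treated rats at each time, and 2 tumor nodules per rat came from the same 4 rats at 14 w and at 20 w. Liver of 4 rats of the same age that received no DEN was the control at each time, so 40 libraries came from 24 rats and made up 8 groups. Each replicate is a separate rat.

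Glutathione S-transferases couple glutathione to electrophilic compounds, which prepares them for export. The soluble enzymes form classes named by Greek letters, and the alpha and mu genes lie in clusters of close relatives. Several alpha and mu genes are known targets of NRF2 (Nfe2l2), a transcription factor that acts through antioxidant response elements when cells meet electrophiles. Other members have metabolic roles: Gstz1 takes part in tyrosine breakdown, Gsto1 reduces dehydroascorbate, Gstk1 is found in mitochondria and peroxisomes, and Mgst1 sits in intracellular membranes.

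Between 20528515 and 160622633 read pairs were counted per library (median 30477421), and NT of rat H26 at 20 w held 4.08 times as many as the next deepest library. Levels are given as CPM, the TMM-scaled counts relative to all counted pairs of the library, and the counts of both nodules of a rat were added to give 1 value per rat. CPM is not divided by transcript length, so levels are compared between samples and not between genes. Pairs that aligned to several places, 7.96% to 16.3% of a library, were not counted, which undercounts genes with near-identical relatives. All 8 hepatocyte markers checked were present in every group, the lowest value being 407.8 CPM of Cps1 in nodules at 14 w. The summed CPM of these markers was 283171 to 328114 in the 12 no DEN rats, 185671 to 293875 in NT and 160433 to 228258 in nodules, and the part of this shift in the results was not tested. Alb alone had 198100 to 223700 CPM in no DEN liver at 14 w, so the sum mostly follows Alb. In bulk tissue, fewer cells of a type and less RNA per cell cannot be told apart.

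Gsta3, Gsta4 and Gstm1 rose after DEN, Gstz1 and Gstk1 fell, and of the other 4 genes only Mgst1 passed the fold minimum, in a single comparison. A gene was called when its adjusted p was at most 0.05 and its log2 fold change at least 0.5 in size. Each adjusted p was obtained with the quasi-likelihood test of edgeR and adjusted over all genes of a comparison by the Benjamini-Hochberg method, and all 9 genes passed the filter on low counts in each of the 11 comparisons. In NT at 8 w, 2 of the 9 genes were higher than in no DEN liver (Gsta3 and Gstm1) and 0 lower, where 16.5% of all genes were called higher and 5.21% lower. In NT at 14 w, 3 were higher (Gsta3, Gsta4 and Gstm1) and 3 lower (Gstk1, Gstz1 and Mgst1), against 22.8% and 9.85% of all genes. In NT at 20 w, 2 were higher (Gsta3 and Gstm1) and 0 lower, against 14.3% and 3.82%. Nodules had 3 higher (Gsta3, Gsta4 and Gstm1) and 2 lower (Gstk1 and Gstz1) at both times, where 23.9% of all genes were higher and 15.2% lower at 14 w, and 23.6% and 15.2% at 20 w. The median log2 fold change over the 9 genes was -0.15 to 0.05 in these 5 comparisons, beside -0.01 to 0.02 over all genes. NT and nodules of a week were set against the same no DEN rats, so their results are not independent. Where groups are said below not to overlap, the share of all genes that separate in this way was not counted. Differences were common: 6600 of 11016 genes in NT at 14 w had an unadjusted p under 0.05 by the edgeR test. In NT at 20 w it was 4355 of 10827, and in nodules 6463 of 11316 at 14 w and 6575 of 11199 at 20 w.

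**Figure D1:**
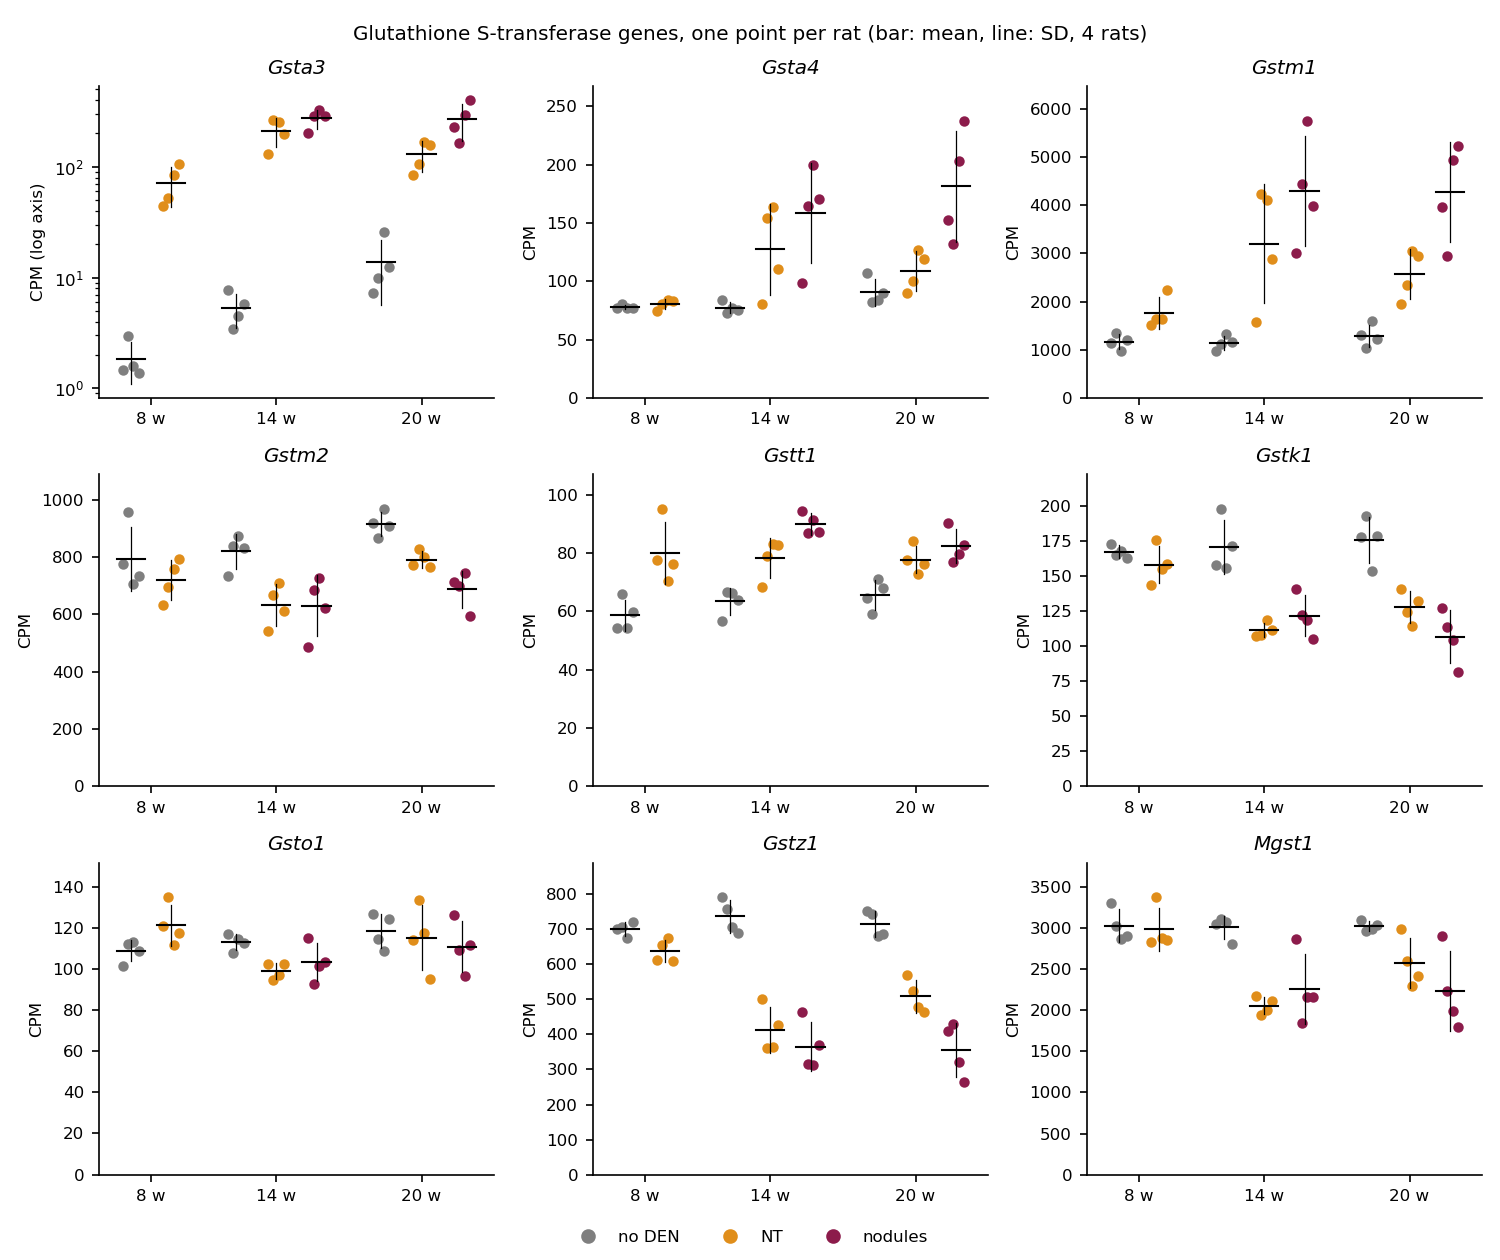
CPM of each gene (vertical axis, a log scale for Gsta3 only) in no DEN liver (grey), NT (orange) and nodules (dark red) at 8, 14 and 20 w, with 1 point per rat, a bar at the mean of 4 rats and a line for the SD. Gsta3 runs from 1.38 CPM in a no DEN rat at 8 w to 399.8 CPM in the nodules of a rat at 20 w, and Gstz1 is lowest in nodules.

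**Figure D2:**
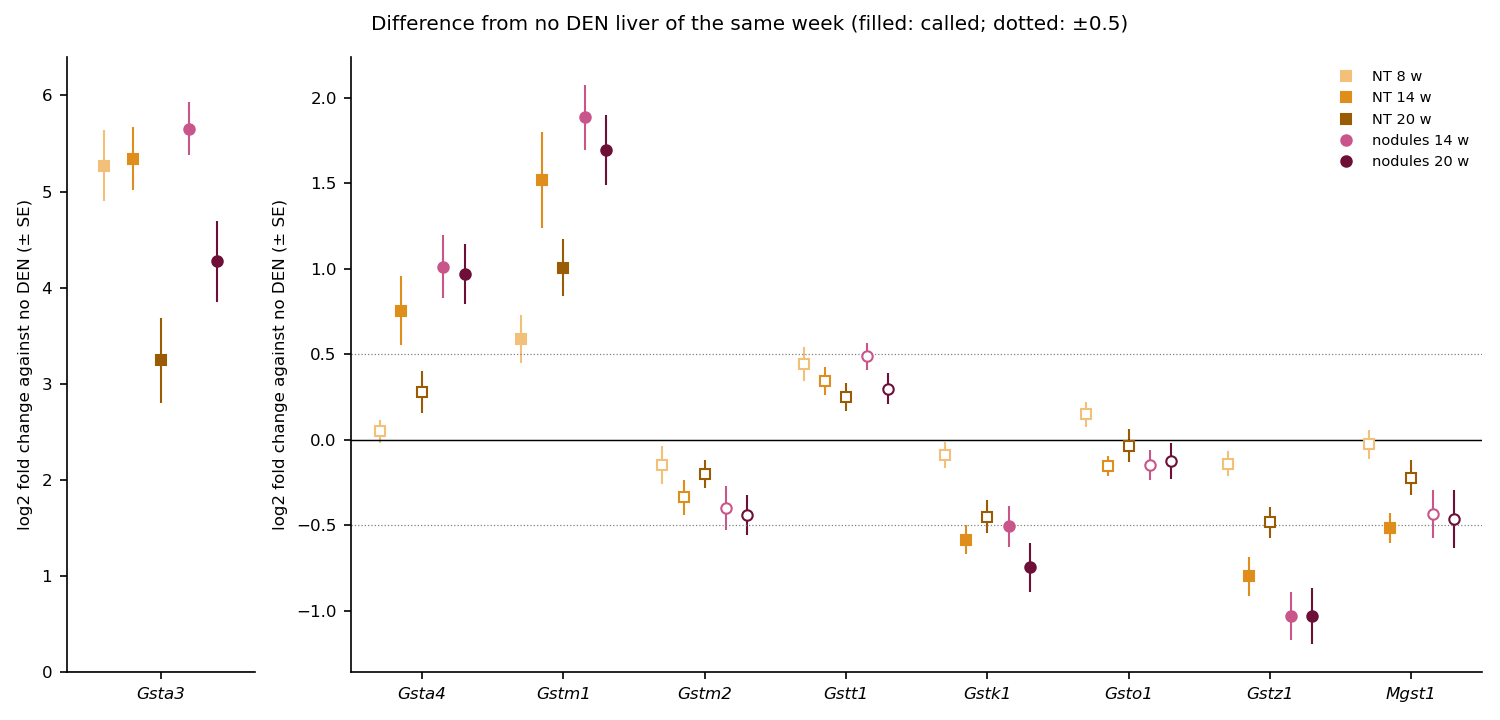
Log2 fold change against no DEN liver of the same week with its SE, for NT (squares) and nodules (circles), with Gsta3 on its own axis and dotted lines at 0.5 and -0.5. Filled symbols were called: Gsta3 and Gstm1 are filled in all 5 comparisons, and Gstm2, Gstt1 and Gsto1 are open in all 5.

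Gsta3, of the alpha class, had the largest difference of the 9 genes in every comparison with no DEN liver. The no DEN rats had 1.47, 2.98, 1.59 and 1.38 CPM at 8 w, 7.67, 3.41, 4.52 and 5.77 CPM at 14 w and 7.18, 9.89, 25.5 and 12.3 CPM at 20 w. In NT it was at 44.5, 51.8, 84.3 and 105 CPM at 8 w, 132, 267, 254 and 196 CPM at 14 w and 84.6, 107, 168 and 158 CPM at 20 w. No treated sample overlapped the no DEN rats of its week. NT was 38.6-fold higher at 8 w (log2 5.27 ± 0.37, adjusted p = 2.15e-05), 40.6-fold at 14 w (log2 5.34 ± 0.33, adjusted p = 1.1e-05) and 9.49-fold at 20 w (log2 3.25 ± 0.44, adjusted p = 0.00277), where ± gives the SE.

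Nodules had 200.4, 285, 326 and 285 CPM of Gsta3 at 14 w and 231, 164, 294 and 399.8 CPM at 20 w. They were 50.4-fold above no DEN liver at 14 w (log2 5.66 ± 0.28, adjusted p = 3.32e-06) and 19.4-fold at 20 w (log2 4.27 ± 0.42, adjusted p = 6.7e-05). The untreated level was also set against age. No DEN liver at 20 w had 7.46 times the Gsta3 level of no DEN liver at 8 w without overlap of the rats, which missed the threshold (log2 2.90 ± 0.47, adjusted p = 0.059) in a comparison that called 0.374% of all genes. The difference was called without H15, the highest rat (log2 2.41, adjusted p = 0.0127), without H13 (adjusted p = 0.05), by DESeq2 (adjusted p = 1.35e-06) and with all 8 groups in one fit (adjusted p = 0.00077), and in no other recalculation. The NT effect on Gsta3 changed by -2.09 on the log2 scale from 14 w to 20 w (SE 0.54, adjusted p = 0.0863), which was not called, and the no DEN level at 20 w enters that value.

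The symbol Gsta3 is not unique. The files list Gsta1, Gsta2, Gsta3 and Gsta5 on separate lines and pair no gene identifiers with them, while RefSeq (GRCr8) gives Gsta5 and Yc2 as other names of Gsta3, and Gsta3 as another name of Gsta1. Which RefSeq gene the counted Gsta3 corresponds to was not settled here. The counted Gsta5 behaved differently, with 2.36 to 3.11 CPM in no DEN liver and 1.84 to 4.18 CPM in NT at 8 w. By the edgeR test it was not called in NT at 8 w (log2 0.05 ± 0.26, adjusted p = 0.906). It was called higher in NT at 14 w (log2 1.47 ± 0.29, adjusted p = 0.00227) and not at 20 w (log2 0.72 ± 0.26, adjusted p = 0.0583). Gsta1 had 809.9 to 952 CPM in no DEN liver and 1169 to 1533 CPM in nodules at 14 w (log2 0.56 ± 0.11, adjusted p = 0.00265). At 20 w Gsta1 had 1006 to 1157 CPM in no DEN liver and was not called in nodules (log2 0.07 ± 0.13, adjusted p = 0.676) or in NT (log2 -0.22 ± 0.09, adjusted p = 0.0942). Gsta2 had 122 to 168 CPM in no DEN liver and 152 to 546 CPM in nodules at 14 w (log2 1.47 ± 0.34, adjusted p = 0.00587).

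Gene starts were searched for TGACNNNGC, the core of the antioxidant response element, on both strands from 250 bases before to 50 bases after the start. Of the 33469 windows of the RefSeq table (GRCr8), 12.1% held it. Windows were given for 8 of the 9 genes, not for Gstt1, and 2 of their 9 windows held the letters: one of the windows of the RefSeq gene named Gsta3, which may not be the counted Gsta3, and that of Gstz1. The windows of Gstm1 and Gstm2, neighbours that differed in response, are shown for comparison and held no match. Capitals mark the match, TGACTTCGC in Gsta3 at 17 to 9 bases before the start, and GCCCCGTCA in Gstz1 at 231 to 223 bases before the start, which reads TGACGGGGC on the other strand. The letters TGAC also open the AP-1 site TGACTCA, so a match names no factor. These coordinates are of GRCr8 and the counts were made on rn6.
Gsta3 (chr9:31154739-31155038, plus strand): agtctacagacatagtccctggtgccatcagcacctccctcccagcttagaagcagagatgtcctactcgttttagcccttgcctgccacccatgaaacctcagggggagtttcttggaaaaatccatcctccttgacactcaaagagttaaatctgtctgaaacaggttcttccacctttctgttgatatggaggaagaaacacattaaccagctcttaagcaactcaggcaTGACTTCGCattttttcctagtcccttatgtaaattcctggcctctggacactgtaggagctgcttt
Gstz1 (chr6:112525356-112525655, plus strand): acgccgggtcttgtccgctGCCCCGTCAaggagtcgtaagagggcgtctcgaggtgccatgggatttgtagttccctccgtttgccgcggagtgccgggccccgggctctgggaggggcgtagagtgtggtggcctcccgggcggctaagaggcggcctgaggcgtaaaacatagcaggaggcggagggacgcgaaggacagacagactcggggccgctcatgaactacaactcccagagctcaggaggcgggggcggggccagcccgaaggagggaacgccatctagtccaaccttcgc
Gstm1 (chr2:198343334-198343633, minus strand): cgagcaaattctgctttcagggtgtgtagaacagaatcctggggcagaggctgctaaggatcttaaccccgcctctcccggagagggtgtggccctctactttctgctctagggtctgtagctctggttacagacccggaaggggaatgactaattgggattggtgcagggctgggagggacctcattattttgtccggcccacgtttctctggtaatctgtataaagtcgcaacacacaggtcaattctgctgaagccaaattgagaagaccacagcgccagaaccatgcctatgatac
Gstm2 (chr2:198316868-198317167, minus strand): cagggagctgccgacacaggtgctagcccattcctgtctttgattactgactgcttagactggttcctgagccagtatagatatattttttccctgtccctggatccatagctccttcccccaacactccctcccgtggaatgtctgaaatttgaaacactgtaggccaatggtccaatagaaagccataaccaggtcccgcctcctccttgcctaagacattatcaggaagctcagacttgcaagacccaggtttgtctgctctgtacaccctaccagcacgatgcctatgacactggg

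Gsta4, an alpha-class enzyme known for conjugating hydroxynonenal, a product of lipid peroxidation, rose in NT at 14 w and in nodules at both times. No DEN rats ranged from 72.7 to 107 CPM over the 3 times. At 8 w the NT samples had 74.6, 80.9, 84.2 and 83.3 CPM, inside that range, and differed by log2 0.05 (95% interval -0.10 to 0.20). At 14 w they had 80.3 (F06), 155 (H21), 164 (H22) and 111 (H23) CPM, against 72.7 to 84.2 CPM in no DEN liver. Only F06 was inside the no DEN range, and Gsta4 was 1.69-fold higher (log2 0.76 ± 0.20, adjusted p = 0.0122). At 20 w, NT had 89.6, 101, 127 and 119 CPM, which overlapped the 81.8 to 107 CPM of no DEN liver and was not called (log2 0.28 ± 0.12, adjusted p = 0.111).

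In nodules Gsta4 was at 98.5, 164, 199.9 and 171 CPM at 14 w and 153, 132, 203 and 238 CPM at 20 w. All 8 values were above the no DEN rats of their week. The rise was 2.02-fold at 14 w (log2 1.01 ± 0.18, adjusted p = 0.00177) and 1.96-fold at 20 w (log2 0.97 ± 0.17, adjusted p = 0.0014).

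Gstm1, a mu-class enzyme, rose in all 5 comparisons with no DEN liver. No DEN rats had 1131, 1350, 968 and 1208 CPM at 8 w, 981, 1125, 1333 and 1150 CPM at 14 w and 1299, 1042, 1593 and 1229 CPM at 20 w. In NT it was at 1505, 1630, 1641 and 2246 CPM at 8 w, 1583, 4229, 4117 and 2895 CPM at 14 w and 1948, 2354, 3047 and 2957 CPM at 20 w. Each NT value was above all no DEN rats of its week. Gstm1 was 1.50-fold higher in NT at 8 w (log2 0.59 ± 0.14, adjusted p = 0.00843), 2.87-fold at 14 w (log2 1.52 ± 0.28, adjusted p = 0.00169) and 2.01-fold at 20 w (log2 1.01 ± 0.17, adjusted p = 0.00212). The 8 w value was near the fold minimum, and without H18, the highest NT rat, it was 0.44 on the log2 scale and not called. With all 8 groups in one fit it missed the threshold (log2 0.59, adjusted p = 0.0525). Nodules had 3014, 4447, 5760 and 3992 CPM at 14 w and 3973, 2940, 4946 and 5226 CPM at 20 w. They exceeded no DEN liver 3.70-fold at 14 w (log2 1.89 ± 0.19, adjusted p = 7.35e-05) and 3.24-fold at 20 w (log2 1.70 ± 0.21, adjusted p = 0.000188).

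Gstm2, the neighbour of Gstm1 in the mu cluster, lay below its controls at 14 w and 20 w. At 8 w, NT had 632 to 792 CPM, which overlapped the 705 to 956 CPM of no DEN liver (log2 -0.14 ± 0.11, adjusted p = 0.331). At 14 w the no DEN rats had 734, 837, 874 and 833 CPM, NT had 542, 669, 711 and 610.2 CPM and nodules had 484, 686, 727 and 621 CPM. Every treated value at 14 w was below every no DEN rat. The same held at 20 w, with 764 to 829 CPM in NT and 595 to 743 CPM in nodules against 867 to 967 CPM. The differences at 14 w and 20 w were under the fold minimum: log2 -0.34 ± 0.10, adjusted p = 0.0169 in NT at 14 w, log2 -0.20 ± 0.08, adjusted p = 0.085 in NT at 20 w, log2 -0.40 ± 0.13, adjusted p = 0.0276 in nodules at 14 w and log2 -0.44 ± 0.12, adjusted p = 0.011 in nodules at 20 w. The ratio of Gstm1 to Gstm2 CPM within a sample, which scaling between libraries does not affect, was 1.20 to 1.65 in the 12 no DEN rats. It was 2.17 to 2.84 in NT at 8 w, 2.92 to 6.32 at 14 w and 2.53 to 3.87 at 20 w, and 6.22 to 7.92 and 4.20 to 8.78 in nodules at 14 w and 20 w, so that every treated value was above every no DEN rat.

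Gstt1, a theta-class enzyme that acts on small halogenated alkanes, was higher in all 5 comparisons by less than the fold minimum. No DEN liver had 54.4, 65.8, 54.4 and 59.6 CPM at 8 w, 56.7, 66.7, 66.3 and 63.7 CPM at 14 w and 64.5, 58.9, 70.9 and 68.1 CPM at 20 w. All treated values were above the no DEN rats of their week, at 70.4 to 95.0 CPM in NT at 8 w, 68.5 to 83.2 CPM at 14 w and 72.8 to 84.0 CPM at 20 w. Nodules had 86.7 to 94.5 CPM at 14 w and 77.0 to 90.4 CPM at 20 w. The NT differences were log2 0.44 ± 0.10, adjusted p = 0.00651 at 8 w, log2 0.34 ± 0.08, adjusted p = 0.00466 at 14 w and log2 0.25 ± 0.08, adjusted p = 0.0395 at 20 w. In nodules they were log2 0.49 ± 0.08, adjusted p = 0.00103 at 14 w, close to the fold minimum, and log2 0.30 ± 0.09, adjusted p = 0.0165 at 20 w. The 14 w value passed the fold minimum without H10 (log2 0.50), H21 (log2 0.52), H22 (log2 0.51) or H23 (log2 0.52), and likewise without the filter on low counts (log2 0.51), with all 8 groups in one fit (log2 0.51) and with nodule 2 alone (log2 0.56).

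Gstz1, the isomerase that handles maleylacetoacetate in tyrosine breakdown, had the largest fall of the 9 genes at 14 w and 20 w. NT at 8 w had 613, 655, 676 and 611 CPM beside 675 to 722 CPM in no DEN liver and was not called (log2 -0.14 ± 0.07, adjusted p = 0.15). At 14 w, no DEN rats had 791, 759, 708 and 689.5 CPM, NT had 501, 362, 363 and 426 CPM and nodules had 463, 316, 312 and 371 CPM. All treated values were below the no DEN rats, and F06, listed first in both tissues, was the highest of them. Gstz1 fell 1.74-fold in NT (log2 -0.80 ± 0.11, adjusted p = 0.000185) and 2.04-fold in nodules (log2 -1.03 ± 0.14, adjusted p = 0.000381).

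At 20 w Gstz1 was at 752, 743, 681 and 685 CPM in no DEN liver, 569.5, 523, 477 and 465 CPM in NT and 411, 429, 322 and 265 CPM in nodules. The 3 groups did not overlap. NT was just under the fold minimum (log2 -0.48 ± 0.09, adjusted p = 0.00403) and passed it without H15 (log2 -0.52), H16 (log2 -0.53) or F03 (log2 -0.54, adjusted p = 0.0028). It was also called by DESeq2 (log2 -0.51), with RLE scaling (log2 -0.51) and with all 8 groups in one fit (log2 -0.50). Nodules were 2.04-fold lower (log2 -1.03 ± 0.17, adjusted p = 0.000783). Other enzymes of tyrosine breakdown were lower in nodules at 14 w as well. Tat, which starts the breakdown (log2 -1.30 ± 0.25, adjusted p = 0.00266), Hpd (log2 -1.05 ± 0.15, adjusted p = 0.000423), Hgd (log2 -0.50 ± 0.08, adjusted p = 0.00111) and Fah, which acts on the product of Gstz1 (log2 -0.60 ± 0.11, adjusted p = 0.00146), all fell, where 15.2% of all genes were called lower. Tat, Hpd, Hgd and Fah also fell in nodules at 20 w (15.2% of all genes). In NT, none of them was called at 8 w (5.21% of all genes), Tat, Hpd and Fah fell at 14 w (9.85%), and Hpd fell at 20 w (3.82%).

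Gstk1, the kappa-class enzyme, had 144, 176, 155 and 159 CPM in NT at 8 w beside 163 to 173 CPM in no DEN liver (log2 -0.09 ± 0.07, adjusted p = 0.386). At 14 w it was at 108, 108, 119 and 112 CPM in NT and 141, 123, 119 and 105 CPM in nodules. All were below the 158, 198, 156 and 172 CPM of no DEN liver, and Gstk1 fell 1.50-fold in NT (log2 -0.58 ± 0.09, adjusted p = 0.000257) and 1.42-fold in nodules (log2 -0.51 ± 0.12, adjusted p = 0.00694). The nodule value was near the fold minimum: without 1 rat at a time it was -0.56 to -0.42 on the log2 scale and lost its call without H10, H21, H22 or H23. It was under the fold minimum as well without the filter on low counts (log2 -0.49), with all 8 groups in one fit (log2 -0.49) and with nodule 2 alone (log2 -0.39). At 20 w, NT had 141, 124, 114 and 132 CPM and nodules 127, 114, 105 and 81.7 CPM, all below the 154 to 193 CPM of no DEN liver. Nodules were 1.68-fold lower (log2 -0.74 ± 0.14, adjusted p = 0.00198), and NT was lower by less than the fold minimum (log2 -0.45 ± 0.10, adjusted p = 0.00733), which it passed without F03 (log2 -0.50) or H15 (log2 -0.53).

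Mgst1, the membrane-bound member, had 2809 to 3313 CPM in the 12 no DEN rats. NT at 8 w had 2829, 3375, 2887 and 2852 CPM (log2 -0.03 ± 0.09, adjusted p = 0.838). At 14 w the NT samples had 2172, 1940, 2004 and 2120 CPM. Every one was below every no DEN rat, and Mgst1 fell 1.43-fold (log2 -0.51 ± 0.09, adjusted p = 0.000584), though without H21 it was -0.49 on the log2 scale and under the fold minimum. Nodules had 2866 (F06), 1851 (H21), 2160 (H22) and 2163 (H23) CPM at 14 w and 2909 (F03), 2235 (H25), 1996 (H26) and 1792 (H28) CPM at 20 w. They were under the fold minimum at 14 w (log2 -0.43 ± 0.14, adjusted p = 0.0276) and at 20 w (log2 -0.46 ± 0.17, adjusted p = 0.0396), and passed it without the highest rat, at -0.55 without F06 and -0.60 without F03. NT at 20 w was not called (log2 -0.22 ± 0.10, adjusted p = 0.134).

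Gsto1, the omega-class enzyme, stayed between 92.6 and 135 CPM over all 32 values. NT at 14 w, at 102, 94.8, 97.0 and 103 CPM, was the one group wholly below its no DEN rats, which had 117, 108, 114 and 113 CPM. That difference was under the fold minimum (log2 -0.15 ± 0.06, adjusted p = 0.0418). In the other 4 comparisons with no DEN liver the log2 difference was -0.15 to 0.15, with none called.

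Whether the NT effect differed between weeks was asked with an interaction test. Between 8 w and 14 w it called 8.96% of all genes (4.16% with a higher and 4.8% with a lower effect at 14 w) and 4 of the 9, all lower. On the log2 scale the effect changed by -0.66 for Gstz1 (SE 0.13, adjusted p = 0.0084), -0.50 for Gstk1 (SE 0.12, adjusted p = 0.0162), -0.49 for Mgst1 (SE 0.12, adjusted p = 0.0176) and -0.30 for Gsto1 (SE 0.09, adjusted p = 0.0439). The Gsto1 call was lost in 13 of the 16 fits that left out 1 rat, and was made without F06, H17 or H23. With all 8 groups in one fit, 0 of the 9 and 1.3% of all genes were called. Gsta4 (log2 0.71 ± 0.22, adjusted p = 0.0524) and Gstm1 (log2 0.93 ± 0.33, adjusted p = 0.0886) missed the threshold. Both were called higher by DESeq2 (adjusted p = 0.0232 and 0.0366), without F06 (adjusted p = 0.000768 and 0.00294) and without all F rats (adjusted p = 0.0045 and 0.0212). Gsta3 had an interval of -1.05 to 1.20 around 0.07. Between 14 w and 20 w, edgeR called 0 of the 9 for NT and 0 for nodules, where 0.738% and 0.0862% of all genes were called. At an unadjusted p under 0.05 there were 3 for NT (Gsta3, Gstz1 and Mgst1) and 1 for nodules (Gsta3), where 17% and 3.26% of all genes were under it. DESeq2 called 1 for NT (Gsta3, adjusted p = 0.0155) and 0 for nodules, beside 3.53% and 0.203% of all genes.

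Nodules were also compared with NT of the same rats. At 14 w, edgeR called 0 of the 9 and 0% of all genes, with 0 of the 9 and 11.8% of all genes at an unadjusted p under 0.05, and DESeq2 called 0 of the 9 and 0.35% of all genes. Without the rat in the fit, the log2 differences ran from -0.20 for Gstz1 (95% interval -0.59 to 0.19) to 0.40 for Gstm1 (95% interval -0.31 to 1.10). These intervals leave out the pairing. Per rat, Gstz1 was lower in nodules in all 4 (log2 -0.22 to -0.11) and Gstm1 higher in all 4 (log2 0.07 to 0.93). At 20 w, 0% of all genes and 0 of the 9 were called when the rat was left out of the fit, with 4 of the 9 and 24% of all genes at an unadjusted p under 0.05. With the rat as a block, 4 of the 9 and 14.7% of all genes were called: Gsta3 (log2 1.02, adjusted p = 0.000472), Gsta4 (log2 0.68, adjusted p = 0.000334) and Gstm1 (log2 0.69, adjusted p = 0.00334) were higher in nodules and Gstz1 (log2 -0.56, adjusted p = 0.00233) was lower. DESeq2 without the block called these 4 as well, with adjusted p of 0.0116, 0.0143, 0.0209 and 0.0298, where it called 7.38% of all genes.

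At 20 w, all 4 rats had more Gsta3, Gsta4 and Gstm1 in nodules than in NT, with log2 differences per rat of 0.61 to 1.45, 0.40 to 0.99 and 0.32 to 1.03. All 4 had less Gstz1 (-0.81 to -0.29), Gstk1 (-0.69 to -0.13), Gstm2 (-0.36 to -0.11) and Mgst1 (-0.43 to -0.04). At 14 w, all 4 had more Gsta3 (0.10 to 0.61), Gsta4 (0.09 to 0.62), Gstm1 (0.07 to 0.93) and Gstt1 (0.08 to 0.46) and less Gstz1 (-0.22 to -0.11). Gstk1, Gsto1, Mgst1 and Gstm2 were higher in 3 rats and lower in 1 at 14 w. The summed hepatocyte markers, mostly Alb, were lower in nodules than in NT in 4 of 4 rats at 20 w and in 3 of 4 at 14 w. Apoa1 went the other way at both times (log2 0.47 at 14 w and 0.46 at 20 w). Ttr and Apoc3 were not lower at 14 w (log2 0.03 and 0.20). All other differences of these markers were negative, and none was called. The summed cholangiocyte markers were higher in nodules in 4 of 4 rats at both times, for example 182 CPM beside 55 CPM in H28 at 20 w. The part of either in these differences was not tested.

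**Figure D3:**
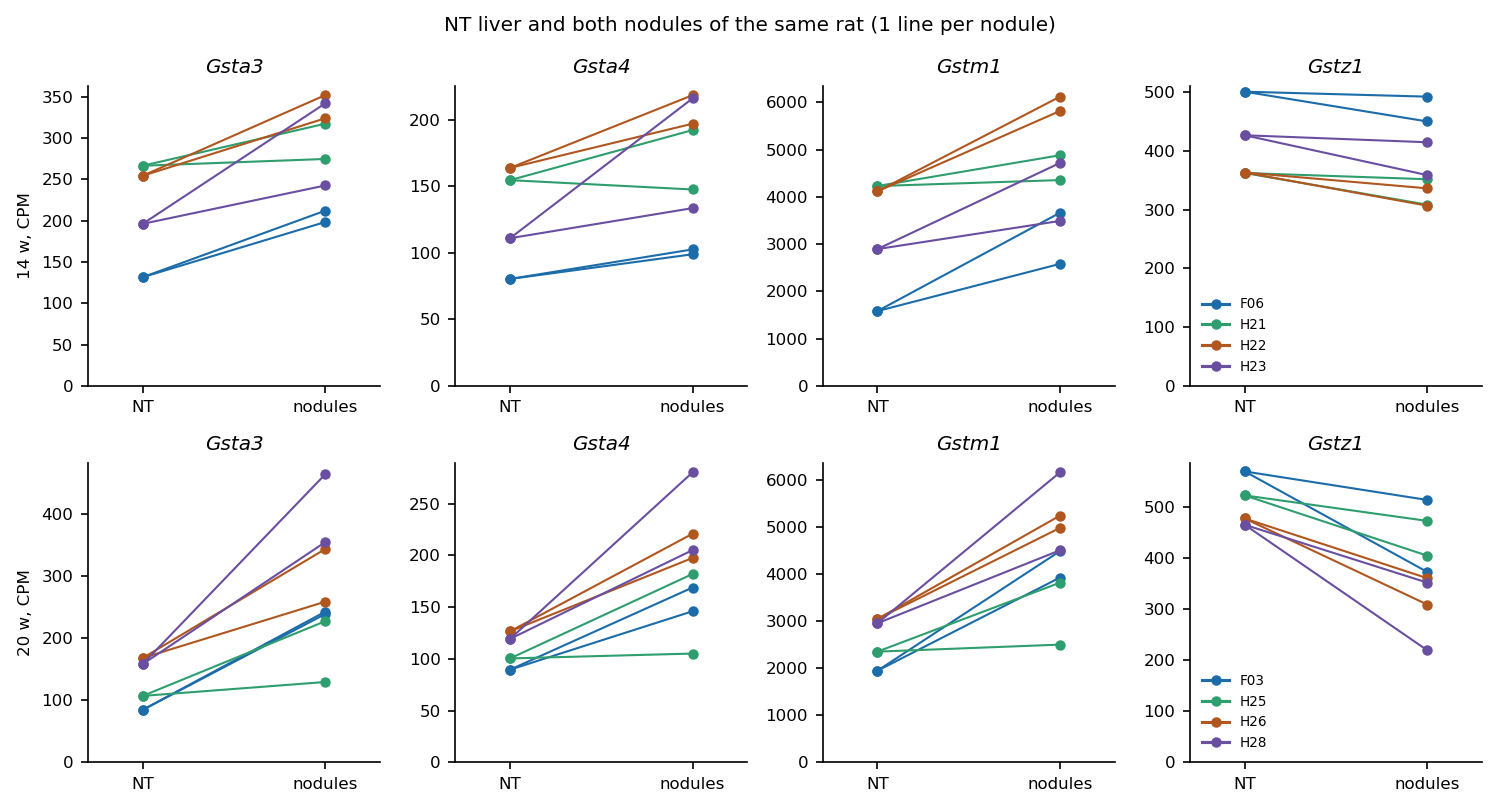
CPM of Gsta3, Gsta4, Gstm1 and Gstz1 in NT and in each of the 2 nodules of the same rat, at 14 w and 20 w, with a colour per rat and a line from NT to each nodule. In the 20 w panels each nodule is above the NT of its rat for Gsta3, Gsta4 and Gstm1 and below it for Gstz1. Single nodules and NT were scaled in separate sets, so their scales differ slightly.

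Each rat gave 2 nodules, which were also read one by one. Single nodules were scaled over the 40 libraries, and NT and added nodules over the 32 values per rat and tissue. These scales differ slightly: in F03 Gsta3 was at 239 and 243 CPM in the single nodules and at 231 CPM when they were added. The higher over the lower Gsta3 level within a rat was 1.07 to 1.41 at 14 w and 1.02 to 1.76 at 20 w, while the 8 nodules of a week spanned 1.77-fold and 3.58-fold. For Gstm1 the ratio within a rat was 1.05 to 1.42 and 1.05 to 1.53, and the span was 2.37-fold and 2.46-fold. In H25 at 20 w, one nodule had 227 CPM of Gsta3 and the other 129.5 CPM, beside 107 CPM in its NT. In F03, Mgst1 was at 4060 CPM in nodule 1 and 2347 CPM in nodule 2, and Gstk1, Gsto1, Gstt1 and Gstz1 were also higher in nodule 1. That library had the highest share of pairs with several alignments of all 40, 16.3% beside 10.3% in nodule 2, and the part of this was not tested. With nodule 2 alone of each rat, Mgst1 was called lower than in no DEN liver at 20 w (log2 -0.57).

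Among treated rats at 20 w, Gsta3, Gsta4 and Gstm1 put the animals in the same order and Gstz1 nearly in the reverse. From lowest to highest, the nodules stood as H25, F03, H26 and H28 for these 3 genes and as H28, H26, F03 and H25 for Gstz1. The NT samples stood as F03, H25, H28 and H26 for the 3 genes and as H28, H26, H25 and F03 for Gstz1. In the treated groups at 8 w and 14 w Gsta3 and Gstm1 again shared an order, while Gsta4 differed from it by the exchange of 2 neighbouring rats in each. In the 20 w nodules the summed cholangiocyte markers gave the order of the 3 genes, at 70, 108, 160 and 182 CPM in H25, F03, H26 and H28, and the summed hepatocyte markers gave that of Gstz1, at 160433, 164897, 221929 and 228258 CPM in H28, H26, F03 and H25. In NT at 20 w the summed hepatocyte markers ran from 228312 CPM in H26 and 229728 CPM in H28 to 250741 CPM in H25 and 293875 CPM in F03, the reverse of the order of the 3 genes, and differed from the order of Gstz1 only in H26 and H28. The summed cholangiocyte markers of NT ran from 34 CPM in H25 to 55 CPM in H28 and gave neither order. At 14 w, F06 was lowest for Gsta3, Gsta4, Gstm1 and Gstm2 and highest for Gstz1 and Mgst1 in both tissues. Its summed cholangiocyte markers were the lowest too, at 39 CPM in NT beside 54 to 87 CPM in the other rats and 64 CPM in nodules beside 86 to 116 CPM. Its summed hepatocyte markers were the highest of the 4 rats in NT, at 230881 CPM, but not in nodules, where F06 had 169477 CPM and the other rats 166765 to 197947 CPM. Which cells expressed these markers, and their part in these orders, was not tested. Its nodule libraries had the highest shares of pairs that fell in no gene, 34.5% and 28.2% beside a median of 24.0% over all libraries, and nodule 1 was the shallowest library, while its NT library was at 24.4%. Without F06, Gsta3, Gsta4, Gstm1, Gstk1 and Gstz1 were called in nodules at 14 w in the same directions. The rats with F numbers were the lowest NT samples for Gsta3 and Gstm1 at every time, and no control rat had an F number. What the letter stands for is not given in the sources used here. Without the F rats the NT effect at 8, 14 and 20 w was 5.69, 5.50 and 3.40 on the log2 scale for Gsta3 and 0.75, 1.73 and 1.12 for Gstm1, all called.

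**Figure D4:**
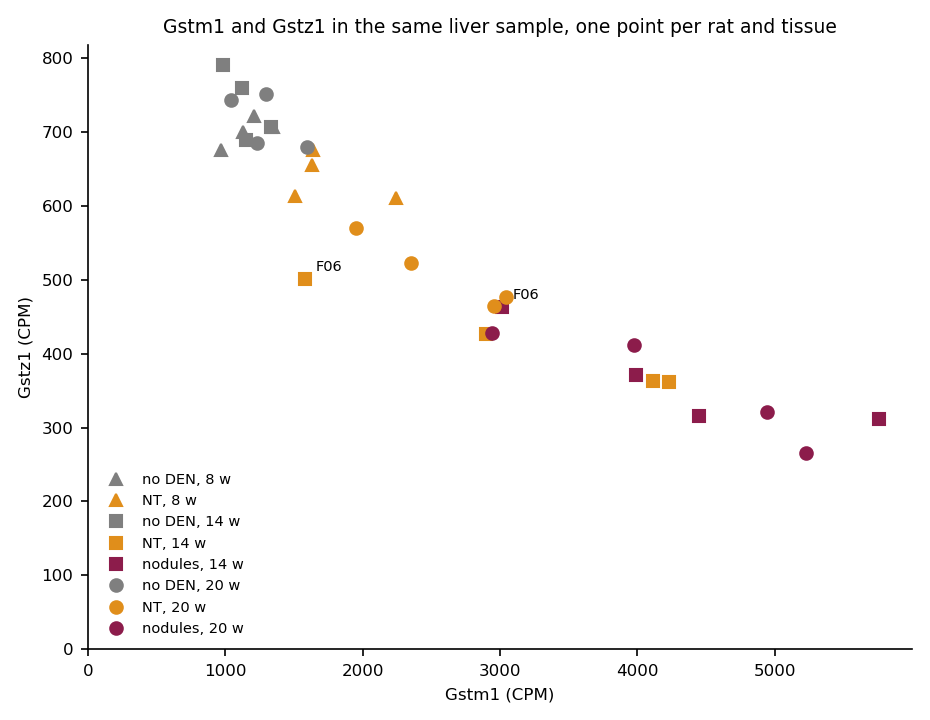
Gstm1 and Gstz1 CPM plotted against each other, 1 point per rat and tissue, with colour for tissue and shape for week and F06 marked. No DEN points sit together at 968 to 1593 CPM of Gstm1 and 675 to 791 CPM of Gstz1, and nodules reach 5760 CPM of Gstm1 and 265 CPM of Gstz1.

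Together the 9 genes took 0.470% to 0.584% of the counted pairs of no DEN libraries. In NT they took 0.564% to 0.741% at 8 w and 0.566% to 0.966% at 14 w, which overlapped the no DEN range, and 0.628% to 0.757% at 20 w. In nodules they took 0.818% to 1.24% at 14 w and 0.645% to 1.31% at 20 w. The lowest count behind a value was 35 pairs for Gsta3 in a library and 1103 pairs for Gstt1, the next lowest, so the untreated Gsta3 level carries the largest counting error.

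The rest of the family was read from 24 further symbols, of which 20 were in the files and 17 were tested. In nodules at 14 w, 11 were higher and 1 lower, where 23.9% of all genes were called higher and 15.2% lower (median log2 fold change 0.63 over the list and 0.00 over all genes). Those with the smallest adjusted p were Gstp1 (log2 8.00 ± 0.26, adjusted p = 8.34e-07), Gstt3 (log2 2.64 ± 0.27, adjusted p = 8.5e-05), Gstm5 (log2 1.65 ± 0.19, adjusted p = 0.000133) and Gsta5 (log2 1.82 ± 0.22, adjusted p = 0.000177). Gstp1 went from 7.56 to 10.4 CPM in no DEN liver to 1647 to 3197 CPM, and Gstt3, a relative of Gstt1, from 56.0 to 107 CPM to 282 to 612 CPM. Gstm7 was the gene that fell, from 119 to 141 CPM to 45.3 to 77.5 CPM (log2 -1.16 ± 0.17, adjusted p = 0.000506). In NT, 4 were higher and 0 lower at 8 w (16.5% and 5.21% of all genes), 9 and 2 at 14 w (22.8% and 9.85%), and 5 and 0 at 20 w (14.3% and 3.82%). In nodules at 20 w the numbers were 9 and 2 (23.6% and 15.2%). The lower ones in NT at 14 w and in nodules at 20 w were Gstm7 and Mgst3.

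**Figure D5:**
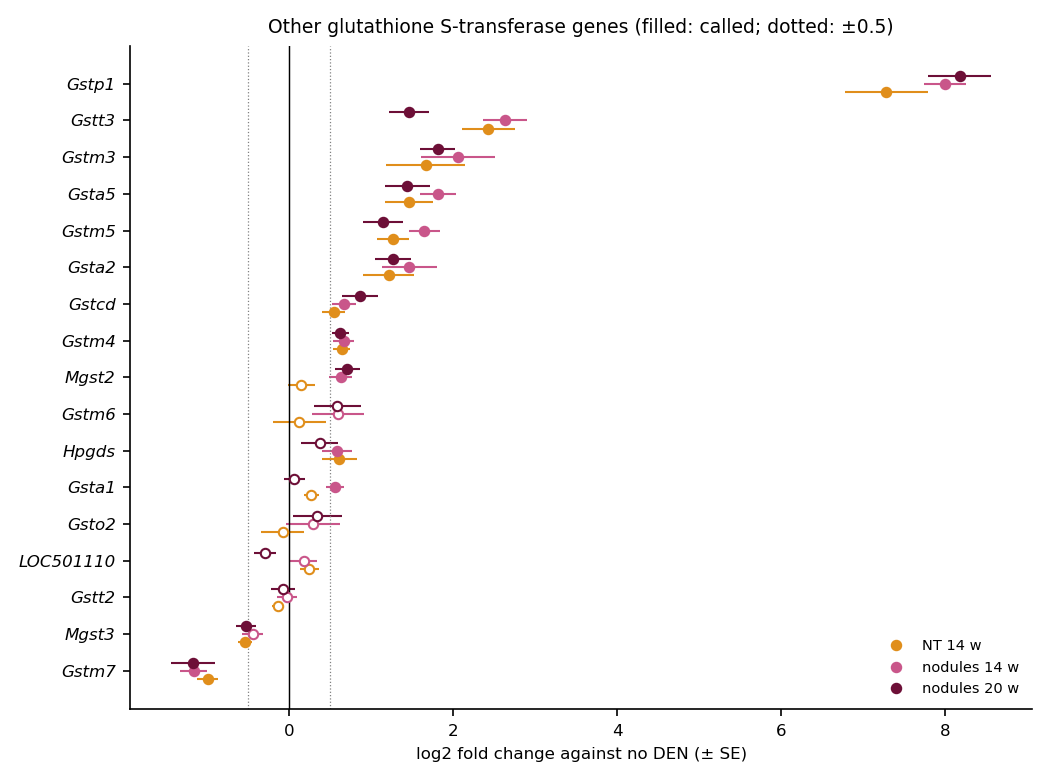
Log2 fold change against no DEN liver with its SE for the 17 other glutathione transferase genes tested, in NT at 14 w, nodules at 14 w and nodules at 20 w, with open symbols for genes not called. Gstp1 lies at 7.28, 8.00 and 8.18, and Gstm7 at -0.99, -1.16 and -1.17.

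Glutathione supply was read from 15 genes of synthesis and recycling. In nodules at 14 w, 8 rose and 4 fell, where 23.9% of all genes were called higher and 15.2% lower (median log2 fold change 1.14 over the list and 0.00 over all genes). Slc7a11, the cystine transporter, went from 0.0332 to 0.214 CPM in no DEN liver to 29.0 to 129.5 CPM, and no fold is given because the no DEN libraries held 1 to 6 counts. Gss, glutathione synthetase, rose (log2 1.18 ± 0.11, adjusted p = 6.35e-05), while Cbs (log2 -1.22 ± 0.13, adjusted p = 8.49e-05) and Cth (log2 -0.85 ± 0.11, adjusted p = 0.000262), which make cysteine from homocysteine, fell together with Ggct and Oplah. In NT, 1 was higher and 1 lower at 8 w (16.5% and 5.21% of all genes), 8 and 2 at 14 w (22.8% and 9.85%), and 5 and 2 at 20 w (14.3% and 3.82%). In nodules at 20 w the numbers were 9 and 4 (23.6% and 15.2%). At 8 w these counts were below or near the shares of all genes.

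Of 7 glutathione peroxidase genes tested, 4 rose and 1 fell in nodules at 14 w, where 23.9% of all genes were called higher and 15.2% lower (median log2 fold change 0.69 over the list and 0.00 over all genes). The fall of 1 is near the share of all genes. Gpx3, the secreted form (log2 2.29 ± 0.10, adjusted p = 2.86e-06), Gpx2 (log2 6.57 ± 0.37, adjusted p = 5.72e-06), Gpx8 (log2 1.16 ± 0.25, adjusted p = 0.00435) and Gpx7 were higher and Gpx1, the abundant cytosolic form, was lower (log2 -0.93 ± 0.14, adjusted p = 0.000554). In NT, 4 were higher and 0 lower at 8 w (16.5% and 5.21% of all genes), 3 and 1 at 14 w (22.8% and 9.85%), and 2 and 0 at 20 w (14.3% and 3.82%). In nodules at 20 w the numbers were 2 and 1 (23.6% and 15.2%).

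Conjugate handling was read from 15 tested genes of export and mercapturate formation, of which 6 rose and 3 fell in nodules at 14 w, where 23.9% of all genes were called higher and 15.2% lower (median log2 fold change 0.10 over the list and 0.00 over all genes). The fall of 3 is near the share of all genes. The exporter Abcc3 went from 1.49 to 2.72 CPM to 72.5 to 139.5 CPM (log2 5.57 ± 0.25, adjusted p = 2.93e-06). Ggt1, which starts the breakdown of glutathione conjugates, went from 0.240 to 0.564 CPM to 13.8 to 35.7 CPM (log2 6.09 ± 0.37, adjusted p = 7.83e-06). Abcc1, another exporter, rose (log2 2.83 ± 0.26, adjusted p = 4.67e-05), and Acy3 (log2 -1.41 ± 0.14, adjusted p = 7.64e-05), Anpep and Ccbl1 fell. In NT, 5 were higher and 2 lower at 8 w (16.5% and 5.21% of all genes), 5 and 2 at 14 w (22.8% and 9.85%), and 5 and 1 at 20 w (14.3% and 3.82%). In nodules at 20 w the numbers were 6 and 2 (23.6% and 15.2%). One gene fewer was tested in NT at 20 w.

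Of 16 NRF2 targets and partners, 12 rose and 1 fell in nodules at 14 w, in a list that shares 6 genes with those of supply and export, where 23.9% of all genes were called higher and 15.2% lower (median log2 fold change 2.13 over the list and 0.00 over all genes). Besides Abcc3 and Slc7a11, the smallest adjusted p belonged to the reductase Akr7a3 (log2 4.49 ± 0.35, adjusted p = 2.07e-05) and to sulfiredoxin, Srxn1 (log2 3.77 ± 0.31, adjusted p = 2.8e-05). Malic enzyme, Me1, fell, and Nfe2l2 itself was not called (log2 0.13 ± 0.09, adjusted p = 0.265). In NT, 6 were higher and 1 lower at 8 w (16.5% and 5.21% of all genes), 12 and 1 at 14 w (22.8% and 9.85%), and 11 and 1 at 20 w (14.3% and 3.82%). In nodules at 20 w the numbers were 12 and 1 (23.6% and 15.2%). Among 12 other known regulators of these genes, 0 rose and 6 fell in nodules at 14 w, where 23.9% of all genes were called higher and 15.2% lower (median log2 fold change -0.82 over the list and 0.00 over all genes). Those that fell were Hnf4a (log2 -0.88 ± 0.10, adjusted p = 0.000151), Cebpa (log2 -0.99 ± 0.12, adjusted p = 0.000155), Stat5b, Rxra, Esr1 and Onecut1. In NT, 0 were higher and 2 lower at 8 w (16.5% and 5.21% of all genes), 0 and 3 at 14 w (22.8% and 9.85%), and 0 and 4 at 20 w (14.3% and 3.82%). In nodules at 20 w the numbers were 0 and 7 (23.6% and 15.2%).

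Markers of cell types moved in the same comparisons. In nodules at 14 w, where 23.9% of all genes were called higher and 15.2% lower, 5 of 8 hepatocyte markers were lower and 1, Apoa1, was higher. Pericentral and periportal hepatocyte markers were lower for 5 of 8 and 5 of 7, and their sums were 3632 to 4507 and 5680 to 7123 CPM in no DEN liver and 2035 to 3287 and 2547 to 3763 CPM in nodules. All 5 cholangiocyte markers tested (Krt19, Epcam, Sox9, Spp1 and Cftr), 5 of 6 stellate cell, 4 of 5 endothelial, 3 of 5 lymphocyte and 1 of 6 macrophage markers were higher. In NT at 8 w, where Gsta3 was already higher and 16.5% of all genes were called higher and 5.21% lower, 1 of 8 hepatocyte, 2 of 7 pericentral and 2 of 7 periportal markers were lower. Higher there were 3 of 5 cholangiocyte, 6 of 6 stellate, 4 of 5 endothelial and 1 of 6 macrophage markers (Cd68) and all 5 lymphocyte markers tested (Cd3d, Cd3e, Cd3g, Cd8a and Cd79b). The summed lymphocyte list was at 2.56 to 4.52 CPM in no DEN liver and 6.96 to 8.66 CPM in NT. Summed cholangiocyte markers were at 16 to 24 CPM in no DEN liver, 29 to 37, 39 to 87 and 34 to 55 CPM in NT at 8, 14 and 20 w, and 64 to 116 and 70 to 182 CPM in nodules. Bulk tissue does not show which cells expressed these markers, and their part in the levels of the 9 genes was not tested.

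The genes whose log2 CPM followed each member most closely over the 32 values were found among 6311 genes with a mean of at least 10 CPM. The values share libraries and fall into treated and untreated sets, so r is a description with no test. For Gsta3 the closest were Ephx1 (r = 0.96), Acsm2a (r = 0.96) and Gpx2 (r = 0.95). For Gsta4 the closest were Akr1c12 (r = 0.98), Rexo2 (r = 0.97) and Slc35e3 (r = 0.97). For Gstm1 the closest were Anxa7 (r = 0.98), Srxn1 (r = 0.98) and Ptgr1 (r = 0.98). For Gstm2 the closest were Chp1 (r = 0.84), Ppm1b (r = 0.84) and Slc9a3r1 (r = 0.83). For Gstt1 the closest were Lamb2 (r = 0.89), Igfbp7 (r = 0.89) and Myl12a (r = 0.88). Gstk1 followed Fah (r = 0.93), Hgd (r = 0.93) and Tmem86b (r = 0.93). Gsto1 followed Phyhd1 (r = 0.85), Chchd1 (r = 0.82) and Hint2 (r = 0.81). Gstz1 followed Upb1 (r = 0.98), Gckr (r = 0.98) and Lyc2 (r = 0.98). Mgst1 followed Mcee (r = 0.97), Arf5 (r = 0.97) and Apoa2 (r = 0.97). Ephx1, near Gsta3, is an epoxide hydrolase, Srxn1, near Gstm1, is sulfiredoxin, and Fah and Hgd, near Gstk1, belong to tyrosine breakdown.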

How the data were processed

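The deposited files hold raw counts of read pairs per gene, 1 file per library. Per the study's methods, the authors sequenced stranded mRNA libraries, aligned the pairs to rn6 with STAR 2.7.1a and counted them over exons with HTSeq, keeping pairs with a single alignment. Close paralogs and overlapping genes are therefore undercounted. The 9 genes and all gene lists were chosen with earlier results of these data known.

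The counts of both nodules of a rat were added. Counts were TMM-scaled and tested with edgeR 4.0.16 (R 4.3.3), by the quasi-likelihood test without the rat in the fit, on the groups of each comparison after edgeR's filter on low counts, with Benjamini-Hochberg adjustment. Alternatives were DESeq2 1.42.0, RLE scaling, no filter, all groups in one fit, other thresholds, single nodules, leaving out rats and the rat as a block. NT and nodules are paired by the rat named in the labels, and their deviations from the group means correlated at r = 0.389 to 0.612 at 14 w and 0.568 to 0.639 at 20 w. The 9 genes were named throughout. From each list the 4 called genes with the smallest adjusted p were named, with all genes of counts of 5 or fewer that were singled out, and for each of the 9 genes the 3 genes with the highest r. The fit was tested on simulated data. Depth was 20528515 to 160622633 pairs per library, with no molecular identifiers. Promoter windows are from RefSeq (GRCr8). One listed gene is not reported here.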

Additional observations from a re-analysis of the deposited data

Results flagged for a closer look

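A sample far from the others of its group was found in 2 of 72 gene and group sets of 4 rats, where chance alone gives about 1 in 20. Gsta4 in no DEN liver at 8 w had 80.1 CPM in H06 beside 76.8 to 77.2 CPM in the other rats. Mgst1 in NT at 8 w had 3375 CPM in F10 beside 2829 to 2887 CPM.

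The NT effect differed between 8 w and 14 w for 4 genes by the interaction test of edgeR, with log2 changes of -0.50 for Gstk1, -0.30 for Gsto1, -0.66 for Gstz1 and -0.49 for Mgst1 (adjusted p = 0.0162, 0.0439, 0.0084 and 0.0176). All 4 missed the threshold with all 8 groups in one fit (adjusted p = 0.0667, 0.135, 0.0509 and 0.104). The Gsto1 call was also lost in 13 of the 16 fits that left out 1 rat.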

How the results depend on the processing

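Directions and calls were kept in 1536 of 1692 recalculations, and every value that changed sign was uncalled before and after. The number of the 9 genes called in NT at 8 w went from 2 to 1 with all 8 groups in one fit and to 1 at a fold of 2 and adjusted p of 0.01, Gstm1 being the call lost. That stricter threshold left 2 of 6 in NT at 14 w and 3 of 5 in nodules at 20 w, and without a fold minimum NT at 20 w had 5, nodules at 14 w 8 and nodules at 20 w 8. In NT at 20 w, 4 in place of 2 were called without the F rats, and 3 by DESeq2, 3 with RLE scaling and 3 with all groups in one fit, Gstz1 being the gene added in each of these 3. For nodules against NT at 20 w, 4 in place of 0 were called by DESeq2, 4 with all groups in one fit, 4 with the rat as a block and 4 with the block in DESeq2, and the block changed no other call of the 9 genes. In nodules at 14 w the count of 5 held without the filter on low counts, with all groups in one fit and with nodule 2 alone, but Gstt1 was called in place of Gstk1. Untreated liver had 1 called by DESeq2 and 1 with all groups in one fit in place of 0, Gsta3 in both. The change of the NT effect from 8 w to 14 w had 0 in place of 4 with all groups in one fit, 6 by DESeq2 and 5 without the F rats, both with Gsta4 and Gstm1 higher, and from 14 w to 20 w 1 in place of 0 by DESeq2. Without 1 rat at a time, the counts were 1 to 2 in NT at 8 w (1 without H18), 2 to 4 in NT at 20 w (4 without F03 or H15), 0 to 1 in untreated liver (1 without H13 or H15), 3 to 6 for the change from 8 w to 14 w and 0 to 1 for that from 14 w to 20 w (1 without F06). The causes of these changes were not tested.

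Some uncalled log2 values changed sign. Without the F rats they were -0.17 for Gsta3 and 0.0731 for Gstt1 (NT effect, 8 w to 14 w), 0.0157 for Gstm2 and -0.000591 for Gsto1 (nodules against NT at 14 w), and 0.0550 for Gstz1 (nodule effect, 14 w to 20 w). With nodule 1 alone they were 0.0457 for Gstm2, 0.11 for Gstk1, 0.23 for Gstz1 and 0.23 for Mgst1 in the change of the nodule effect, and for Gsto1 0.0136 against no DEN and 0.0882 against NT at 20 w. With nodule 2 alone they were 0.18 for Gsta4 and -0.15 for Gsto1 in that change, and 0.0229 for Gstm2 against NT at 14 w. Without a filter on low counts Gstz1 was at 0.00162 in that change. Mgst1 in untreated liver was at -0.00144 by DESeq2, -0.00389 with RLE scaling and -0.000282 without the filter. Without 1 rat at a time the change of the nodule effect ran over -0.21 to 0.0737 for Gsta4, -0.14 to 0.0228 for Gstm2, -0.0518 to 0.0909 for Gsto1, -0.12 to 0.14 for Gstz1 and -0.19 to 0.11 for Mgst1. Likewise Gsta3 ran over -0.25 to 0.32 in the NT change from 8 w to 14 w, Mgst1 over -0.0847 to 0.0167 in NT at 8 w and -0.0302 to 0.0507 in untreated liver, Gstm2 over -0.0523 to 0.0157 against NT at 14 w, and Gsto1 over -0.11 to 0.0395 in NT at 20 w, -0.000591 to 0.0584 against NT at 14 w and -0.15 to 9.366e-05 at 20 w.

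Over all genes, the stricter threshold gave 855, 1676 and 565 calls in NT at 8, 14 and 20 w and 2117 and 1946 in nodules, beside 2344, 3592, 1957, 4425 and 4347, and NT without a fold minimum gave 3814, 5989 and 2986. Nodules against NT had 35 by DESeq2 and 395 with the block in DESeq2 at 14 w, and at 20 w 902 by DESeq2, 1096 with all groups, 218 with nodule 1 alone, 1693 with the block and 1613 with the block in DESeq2, all beside 0. By DESeq2, untreated liver had 168 in place of 39 (1 at the stricter threshold), the NT change to 14 w 1529 in place of 1005, that to 20 w 382 in place of 83 and the nodule change 29 in place of 10. Without 1 rat at a time these 4 counts were 11 to 102, 533 to 1870, 31 to 408 and 6 to 15, and nodules against NT at 20 w had 0 to 445. With all groups in one fit those 3 changes had 151, 41 and 16, the NT change to 20 w had 182 without the F rats, and the nodule change had 5 with nodule 1 alone. With 4 rats a group, differences near the fold minimum depend on single animals.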
